A study of Sus scrofa with 54 samples.

Results

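The comparison described here sets the left ventricle against skeletal muscle in the same healthy pigs. It holds 12 of the 54 samples of the series. The left ventricle group was the 6 conventional endomyocardial biopsies (EMB) taken at baseline, and the skeletal muscle group was the 6 skeletal muscle samples, also taken at baseline. Samples were chosen by the tissue and time point in their labels, and no measured value was used. Both groups came from pigs 4491 and 4494, with 3 samples of each tissue from each pig.

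The animals were naive adult female Yorkshire-Swedish farm swine. Both groups share the sedation, general anaesthesia and routine amiodarone that the study's methods give for the procedure. Left ventricle was cut with a clinical forceps bioptome from the inside of the chamber, and skeletal muscle was taken from the groin. Each sample was a single small biopsy, sequenced as total RNA, so a library holds RNA of every cell type in the piece. In such bulk samples, fewer cells of a type and less RNA per cell cannot be told apart. Several biopsies of 1 pig are not independent animals, so the p-values measure the spread between biopsies of 2 pigs.

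Cardiac and skeletal muscle are the striated muscles of the body. They share the plan of the sarcomere, in which myosin filaments pull on actin filaments under the control of troponin and calcium, but they build it largely from different paralogous genes. Skeletal fibres are multinucleate, are set off by motor nerves and couple their membrane to calcium release by direct contact of channels. Cardiomyocytes are joined end to end by junctions that pass the impulse from cell to cell, release calcium in response to calcium, and live mainly on fatty acid oxidation.

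The total count of a sample lay between 950326 and 2348370 in left ventricle and between 325907 and 4175898 in skeletal muscle. The labels were first checked against marker genes. In 5 of the 6 left ventricle samples, 8.06 to 12.4% of the counts lay on 6 cardiomyocyte marker genes. In sample 38, from pig 4494, the share was 0.00946%. All 6 marker genes were low there, with ACTC1 and NPPB at 0. Its erythroid and leukocyte markers took 0.422% of the counts, against 0.0171 to 0.131% in the other 5. In the 6 blood samples the share was higher, at 3.49 to 7.17%. The 2 platelet markers with a row summed to 9008 normalised CPM (counts scaled to a library of 1000000) in sample 38, above the 20.6 to 329 CPM in the 6 blood samples of the same pigs. Across all genes, log2 levels in sample 38 correlated at r = 0.715 with the mean of the blood samples and at r = 0.482 with the mean of the other left ventricle samples, which is a description across genes. Sample 38 is the library labelled left ventricle that went against its label, and results are given with and without it.

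Sample 57, from pig 4491, stood apart among the skeletal muscle samples. It had the fewest counts of the 12. Its skeletal myofibre markers took 2.92% of the counts, against 6.10 to 12.2% in the other 5. Its erythroid and leukocyte markers took 0.0353% against 0.00564 to 0.00674%. That share lay inside the 0.0171 to 0.131% of the left ventricle samples other than 38. Across all genes, log2 levels in sample 57 correlated at r = 0.276 with the mean of the blood samples, against 0.353 to 0.395 in the other 5. With the mean of the other skeletal muscle samples it was r = 0.566. Several cardiac genes were also higher in sample 57 than in any other skeletal muscle sample, with RYR2 at 165 CPM against at most 35.6 CPM. The part of blood and of RNA from other tissue in these libraries was not tested. The mean share of erythroid and leukocyte markers was 0.114% ± 0.157 (SD, n = 6) in left ventricle and 0.0110% ± 0.0119 (SD, n = 6) in skeletal muscle, and the difference of 0.103 percentage points gave p = 0.025 in a two-sided exact permutation test within pigs, where the smallest possible p is 0.005. Leaving out any 1 skeletal muscle sample gave p from 0.08 to 0.12 in the same exact test. Without samples 38 and 57 the shares were 0.0526% ± 0.0478 and 0.00614% ± 0.000481 (SD, n = 5 each, exact p = 0.01, the smallest possible). Samples 38 and 57 were set apart partly by this same share. Sample 57 was the only skeletal muscle sample inside the left ventricle range, so the tissues no longer overlapped once it was left out. The p of 0.01 depends on that choice, and nothing is read from it.

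**Figure D1:**
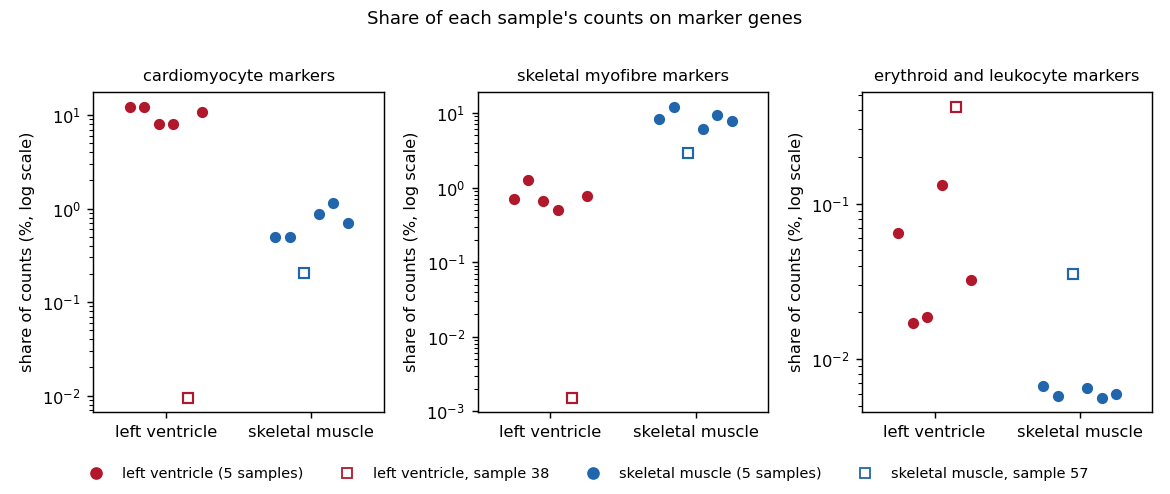
Share of each sample's counts on cardiomyocyte, skeletal myofibre, and erythroid and leukocyte marker genes (percent, log axis), 1 point per sample in each tissue. Sample 38 lies far below the other left ventricle samples for cardiomyocyte markers and above them for blood markers, and sample 57 lies below the other skeletal muscle samples for myofibre markers.

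The tissues differed in many genes in either set of samples, and more were called without samples 38 and 57. A gene was called where edgeR's quasi-likelihood test, with the pig as covariate, gave a log2 fold change beyond 1 in either direction and an adjusted p under 0.05. With all 12 samples, 767 of 9325 tested genes (8.23%) were called, 375 (4.02%) higher in left ventricle and 392 (4.2%) higher in skeletal muscle. Without samples 38 and 57, 1694 of 9284 (18.2%) were called, 939 (10.1%) higher in left ventricle and 755 (8.13%) higher in skeletal muscle. With 12 samples, the samples of the tissues did not overlap for 263 genes (2.82%) with left ventricle above and 357 (3.83%) with skeletal muscle above. Without samples 38 and 57 they did not overlap for 826 genes (8.9%) with left ventricle above and 857 (9.23%) with skeletal muscle above. Of the genes tested in both sets, 354 left ventricle and 385 skeletal muscle calls were shared and 0 pointed in opposite directions, although the sets share 10 samples. Leaving out sample 38 alone gave 647 calls in left ventricle and 596 in skeletal muscle, and leaving out sample 57 alone gave 570 and 504. Leaving out any other single sample lowered both counts, the most for sample 41, a skeletal muscle sample of pig 4494 (238 and 272). The median log2 fold change of all tested genes was 0.05 with 12 samples and 0.04 with 10. Gene lists for the muscle programmes held 537 symbols together with the marker lists, of which 367 had a row. Of these, 20 were listed at 0 in all 12 samples, among them SDHA, a gene that every cell uses, so nothing is read from such a 0. Scaling by library size alone moved the median of all tested genes to 0.36, and the calls then split into 565 higher in left ventricle and 260 higher in skeletal muscle. Fold changes below are left ventricle relative to skeletal muscle on the log2 scale, ± their standard error, so a negative value means a higher level in skeletal muscle. Ranges and medians of levels are over the 5 samples of each tissue other than 38 and 57, whose values are given for some genes only. Several genes called in left ventricle were lower in sample 38 than in sample 57. Among them were NEBL at 13.7 against 46.6 CPM, DSP at 14.8 against 88.5 CPM, PKP2 at 1.14 against 23.3 CPM and RYR2 at 11.4 against 165 CPM. Ranges that do not meet over 5 samples therefore do not mean that all 12 samples were separate. A gene near 0 in 1 tissue can pass the filter on low counts through the other tissue, so counts of called members among those tested are descriptions. Of the genes named below, 12 were called by DESeq2 with 12 samples where edgeR did so without samples 38 and 57, namely MYH6, TNNT1, ACTC1, ACTA1, MYL3, TPM1, ANKRD1, KCNC4, CORIN, HADHB, NR1D2 and PER2. By contrast, 11 genes called with 12 samples lost the call in edgeR when some single sample was left out (adjusted p up to 0.112), namely TNNI1, MYH7B, CACNB2, CACNA2D1, TRDN, HOXA7, AGT, PFKFB2, ENO3, GAMT and DYSF. Only genes called with 12 samples can lose the call. Of the 116 named genes, 32 were not called by edgeR with 12 samples and were called without samples 38 and 57. In pig 4494 alone, which holds sample 38, 39 named genes lost the call, among them TNNT2, RYR2, MYBPC3, NEBL, GATA4, GJA1, DSP, LDHA and NEB. With counts summed per pig and tissue 35 lost it, among them MYBPC3, CDH2, GJA1 and TBX5. With the blood marker share as a covariate 21 did, and in pig 4491 alone 12. Without samples 38 and 57, HOXA7 lost it in pig 4494 alone and in the sums. In the same set, PFKFB2, COX7A2 and IER3 lost it in pig 4491 alone. AGT and PFKFB2 lost it there when tested against a log2 fold change of 1.

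Among the genes of the cardiac sarcomere, 2 of the 8 tested were called higher in left ventricle and 0 higher in skeletal muscle with 12 samples, against 4.02% and 4.2% of all tested genes. Without samples 38 and 57 the counts were 6 and 1, against 10.1% and 8.13%, and the median fold change of the list was 2.72. TNNT2, cardiac troponin T, which ties the calcium-sensing troponin complex to tropomyosin, had 5380.1 to 9035 (median 7957) CPM in the 5 left ventricle samples and 33.6 CPM in sample 38. In skeletal muscle it had 4.89 to 17.9 (median 10.1) CPM, with 30.3 CPM in sample 57. Every left ventricle sample lay above every skeletal muscle sample, but sample 38 only just above sample 57. The fold change was 8.95 ± 1.08 (edgeR adjusted p = 0.000116) and 9.40 ± 0.36 without samples 38 and 57 (adjusted p = 1.21e-12). MYBPC3, the cardiac myosin-binding protein C, was at 2767 to 4873 (median 3622) CPM in left ventricle, at 0 in 4 skeletal muscle samples, at 7.40 CPM in sample 31 and at 95.5 CPM in sample 57. Sample 38 had 44.5 CPM, below sample 57. Its fold change was 9.05 ± 1.76 with 12 samples (edgeR adjusted p = 0.00494) and 11.44 ± 0.65 with 10 (adjusted p = 1.15e-10).

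The other cardiac sarcomere genes were also present in skeletal muscle. MYH6, the alpha myosin heavy chain, had 48169 to 86958 (median 70542) CPM in left ventricle and 5513 to 13683 (median 7894) CPM in skeletal muscle. The near-identical neighbour MYH7, the beta or slow heavy chain of both tissues, has no named row, so reads of the pair may be mixed in this row. The fold change of MYH6 was 3.01 ± 1.27 with 12 samples, which missed the threshold (edgeR adjusted p = 0.181), and 3.08 ± 0.34 with 10 samples (adjusted p = 1.37e-06). ACTC1, cardiac alpha-actin, was at 2516 to 6317 (median 3743) CPM against 133 to 809 (median 149) CPM, and MYL3, the slow and ventricular essential light chain, was at 3129 to 5843 (median 4100.4) CPM against 698 to 1581 (median 753) CPM. In edgeR each missed the threshold with 12 samples and was called in left ventricle without samples 38 and 57, with fold changes of 3.73 ± 0.47 and 2.36 ± 0.26. DESeq2 called both with 12 samples (adjusted p = 0.00330 and 0.0379). TNNC1, the troponin C of heart and slow fibres, was called in left ventricle without samples 38 and 57 (1.82 ± 0.31), at 3145 to 6699 (median 4159) CPM against 737 to 2557 (median 1527) CPM. ACTC1 and TNNC1 were at 0 and MYL3 at 10.8 CPM in sample 38, and no left ventricle sample other than 38 overlapped with skeletal muscle. The actin genes have nearly identical coding sequences, so reads may be split between them in the counting. TPM1, a tropomyosin, was the member called in the other direction, with a fold change of -1.33 ± 0.22 without samples 38 and 57 (edgeR adjusted p = 0.000171).

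**Figure D2:**
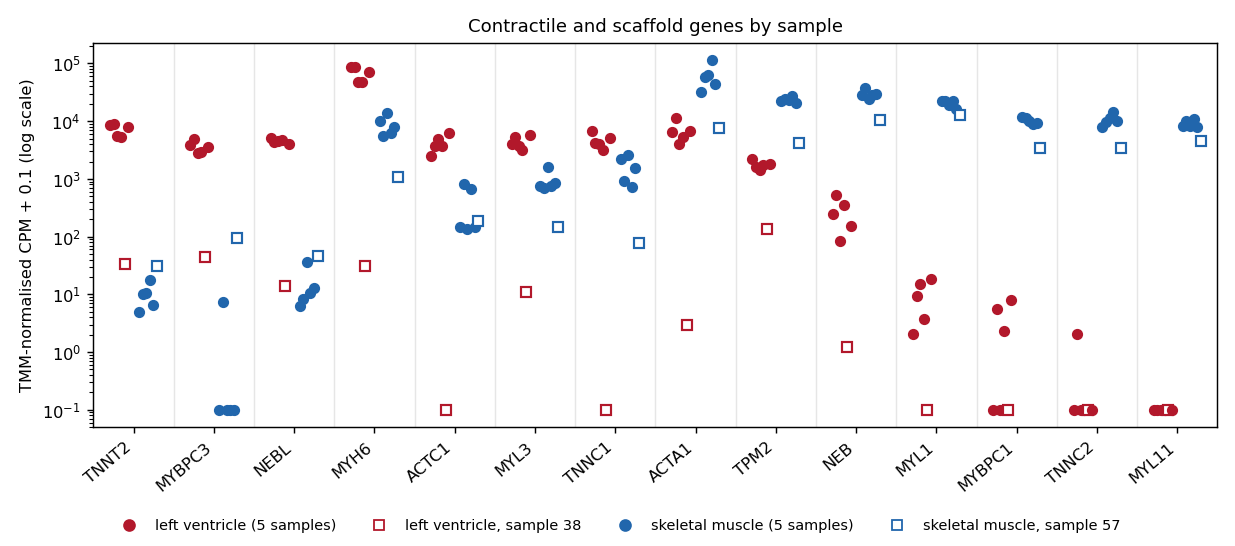
Level of 14 contractile and scaffold genes in each of the 12 samples (TMM-normalised CPM plus 0.1, log axis), with left ventricle and skeletal muscle side by side for each gene. Left ventricle samples other than 38 are above skeletal muscle from TNNT2 to TNNC1 and below it from ACTA1 to MYL11, except for ACTA1 in sample 57.

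Most fast skeletal sarcomere genes were at or near 0 in left ventricle. With 12 samples, 6 of the 7 tested were called higher in skeletal muscle and 0 in left ventricle, and without samples 38 and 57 all 7 tested were called in skeletal muscle, with a list median of -10.97. Over all tested genes, 4.2% and 8.13% were called in skeletal muscle in these 2 sets of samples. TNNC2, the troponin C of fast fibres, had 7843 to 14595 (median 10150.4) CPM in skeletal muscle and 3382 CPM in sample 57. In left ventricle it was at 0 in every sample but sample 12, which had 1.94 CPM. The fold change was -14.33 ± 1.14 (edgeR adjusted p = 4.12e-06). MYL11, the fast regulatory light chain, had 0 counts in all 6 left ventricle samples and 7863 to 10747 (median 8187) CPM in skeletal muscle, which is at least 32526-fold higher when 3 counts over the left ventricle group are taken as the floor. MYL1, the fast essential light chain, was at 1.95 to 18.4 (median 9.30) CPM in left ventricle and 16404 to 22302 (median 22134) CPM in skeletal muscle, a fold change of -11.29 ± 1.14 (edgeR adjusted p = 3.28e-05). MYLK2, the kinase that phosphorylates the skeletal regulatory light chain, had 2 counts in all left ventricle samples together. Its level in skeletal muscle was 513 to 827 (median 590.1) CPM, a ratio of 3342 (95% counting interval 925 to 27601, counting error only).

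ACTA1, skeletal alpha-actin, was the member of the list with the smallest fold change. It was present in left ventricle at 4055 to 11419 (median 6442) CPM and in skeletal muscle at 32196 to 113905 (median 58861) CPM, and sample 57 had 7626 CPM, within the left ventricle range. The change missed the threshold with 12 samples (-3.33 ± 1.22, edgeR adjusted p = 0.120) and passed it with 10 (-3.29 ± 0.34, adjusted p = 4.55e-07). TPM2, beta-tropomyosin, was called in either set, at -3.81 ± 0.78 and -3.78 ± 0.24.

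Of the 4 tested genes listed for slow skeletal fibres, 2 were called higher in skeletal muscle and 1 in left ventricle with 12 samples, and 3 and 1 with 10. The shares over all tested genes were 4.2% and 4.02% with 12 samples, and 8.13% and 10.1% with 10. MYBPC1, the slow skeletal myosin-binding protein C, was at 8926 to 11872 (median 10243) CPM in skeletal muscle and at most 8.02 CPM in left ventricle (fold change -11.71 ± 1.19, edgeR adjusted p = 3.35e-05). TNNI1, slow troponin I, was also called in skeletal muscle, at 139.9 to 441 (median 237) CPM against 7.21 to 55.8 (median 17.1) CPM. Sample 57 had 23.3 CPM of TNNI1, inside the left ventricle range. TNNT1, slow troponin T, was called in edgeR without samples 38 and 57 (-2.21 ± 0.34), and by DESeq2 with 12 samples (adjusted p = 0.0490). MYH7B, a myosin heavy chain made in heart and in slow fibres, was the member called in left ventricle, at 407 to 1209.5 (median 511) CPM against 104 to 139 (median 107) CPM (fold change 2.24 ± 0.56, edgeR adjusted p = 0.0243).

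In the Z-disc and scaffold list, 7 of 22 tested genes were called higher in skeletal muscle and 1 in left ventricle with 12 samples. Over all tested genes the shares were 4.2% and 4.02%. With 10 samples the counts were 12 and 3, against 8.13% and 10.1% of all tested genes. The left ventricle counts were near the share over all genes. The nebulin family split between the tissues. NEB, the giant ruler of skeletal thin filaments, had 24524 to 38050.5 (median 28943) CPM in skeletal muscle and 83.4 to 519.9 (median 247) CPM in left ventricle, a fold change of -7.28 ± 1.15 (edgeR adjusted p = 0.00108). NEBL, its short cardiac relative nebulette, had 4020.1 to 5064 (median 4473) CPM in left ventricle and 6.12 to 35.7 (median 10.5) CPM in skeletal muscle, a fold change of 7.54 ± 1.12 (edgeR adjusted p = 0.000683). MYOZ1, a calcineurin-binding protein of fast Z-discs, was at 1715 to 2469.6 (median 2029) CPM in skeletal muscle and at most 2.40 CPM in left ventricle. XIRP2 and ANKRD23 were also called in skeletal muscle, with fold changes of -5.07 ± 0.94 and -2.96 ± 0.65. ANKRD1, a stretch-responsive protein of cardiac titin, was at 2843 to 5642 (median 4251) CPM against 305 to 972 (median 409.9) CPM and was called in left ventricle without samples 38 and 57 (3.01 ± 0.25), but not with 12 samples (edgeR adjusted p = 0.0543). Some calls in skeletal muscle were small. The intermediate filament gene DES and the costamere gene CMYA5 had fold changes of -1.21 ± 0.25 and -1.18 ± 0.24 without samples 38 and 57, and neither was called with 12 samples.

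Genes that release and take up calcium in skeletal fibres were called in 8 of 11 tested cases with 12 samples and in 10 of 11 with 10, all higher in skeletal muscle. Of all tested genes, 4.2% were called there with 12 samples and 8.13% with 10. CACNA1S, the voltage sensor that couples the fibre membrane to calcium release, had 2 counts in all left ventricle samples together. It had 1159 to 1941 (median 1652) CPM in skeletal muscle, a ratio of 8718 (95% counting interval 2413 to 71990.5). Its partner subunits moved the same way. CACNB1 had a fold change of -5.97 ± 0.49 (edgeR adjusted p = 5.90e-06), CACNA2D1 one of -2.70 ± 0.79, and CACNG1 had 1 count in all left ventricle samples against 75.9 to 263 (median 96.4) CPM in skeletal muscle (ratio 1656, 95% counting interval 297 to 65451). ATP2A1, the calcium pump of the fast sarcoplasmic reticulum, was at 15384 to 24047 (median 19186) CPM in skeletal muscle and at 0 to 4.81 (median 0.365) CPM in left ventricle. Sample 38 had the highest left ventricle value, 10.3 CPM. CASQ1, which stores calcium in the reticulum, was at 6664 to 8068 (median 7540.1) CPM against 35.4 to 86.8 (median 71.3) CPM, a fold change of -6.97 ± 0.75 (edgeR adjusted p = 5.28e-05). PVALB, the calcium buffer parvalbumin of fast fibres, had 0 counts in all left ventricle samples and 193 to 373 (median 325) CPM in skeletal muscle, at least 977-fold higher.

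The 7 tested genes listed for cardiac calcium handling did not move together. With 12 samples 2 were called in left ventricle and 1 in skeletal muscle, against 4.02% and 4.2% of all tested genes. With 10 samples the counts were 3 and 1, against 10.1% and 8.13%. The list medians were -0.03 with 12 samples and 0.03 with 10. With scaling by library size alone the first was 0.27, while the median of all tested genes went from 0.05 to 0.36. RYR2, the cardiac calcium release channel, was at 4544 to 12745 (median 5648) CPM in left ventricle and 7.78 to 35.6 (median 13.5) CPM in skeletal muscle. Its fold change was 7.40 ± 1.22 (edgeR adjusted p = 0.00152), and 8.55 ± 0.45 without samples 38 and 57. CACNB2, the beta subunit of the cardiac L-type channel, had a fold change of 3.51 ± 0.96 (edgeR adjusted p = 0.0364). CAMK2D, the main cardiac calcium-dependent kinase, was called with 10 samples, at 1.51 ± 0.20, and not with 12. SLN, sarcolipin, which slows the calcium pump in atria and in skeletal fibres, was the member called in skeletal muscle. It had 1192 to 2335 (median 1591) CPM there and 0 to 15.3 (median 3.49) CPM in left ventricle, a fold change of -8.51 ± 0.94 (edgeR adjusted p = 5.89e-05).

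The genes called in the list of cardiac ion channels and cell junctions were higher in left ventricle in either set. With 12 samples, 7 of 11 tested genes were higher in left ventricle and 0 in skeletal muscle, and with 10 samples 12 of 13. The share of all tested genes called in left ventricle was 4.02% with 12 samples and 10.1% with 10. The 6 other listed genes with a row did not pass the filter on low counts with 12 samples. SCN4A, the skeletal sodium channel and a member of the skeletal excitation list, was at 158 to 406 (median 275) CPM in skeletal muscle and at most 4.01 CPM in left ventricle (fold change -8.55 ± 0.85, edgeR adjusted p = 3.10e-05). GJA1, the connexin that joins working cardiomyocytes electrically, was at 649 to 1009 (median 828) CPM against 39.2 to 61.9 (median 50.4) CPM. In sample 57 it was at 165 CPM and in sample 38 at 50.2 CPM, so the groups overlapped only through sample 38 (fold change 3.45 ± 0.59, edgeR adjusted p = 0.00223). The desmosome genes DSP, PKP2 and DSG2, which anchor neighbouring cardiomyocytes at the intercalated disc, were all called in left ventricle. DSP was at 1000.4 to 1845 (median 1554) CPM against 6.40 to 28.1 (median 16.0) CPM (5.65 ± 0.87, edgeR adjusted p = 0.000907), and PKP2 had a fold change of 6.12 ± 1.19. CDH2, the cadherin of the same junction, was not on the list and was among the largest left ventricle changes, at 646 to 849 (median 749.6) CPM against at most 21.0 CPM, in sample 57, with sample 38 at 0 (7.99 ± 1.43, edgeR adjusted p = 0.00291). Of the 3 tested genes of skeletal excitation and the motor endplate, SCN4A was called with 12 samples, and SCN4A and KCNC4 with 10. Calls in skeletal muscle made up 4.2% and 8.13% of all tested genes.

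**Figure D3:**
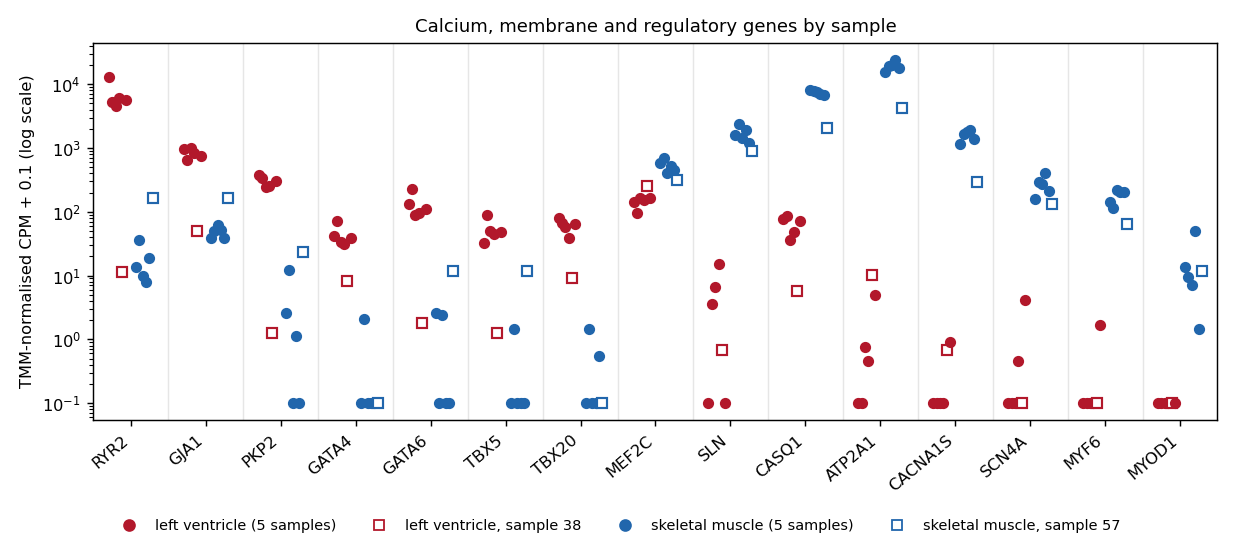
Level of 15 calcium, membrane and regulatory genes in each of the 12 samples (TMM-normalised CPM plus 0.1, log axis), with left ventricle and skeletal muscle side by side. Left ventricle samples other than 38 are above skeletal muscle from RYR2 to TBX20 and below it from MEF2C to MYOD1.

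Transcription factors of heart and of skeletal muscle differed in opposite directions. GATA4, TBX20, GATA6 and TBX5, which direct heart development and stay on in adult cardiomyocytes, were called in left ventricle in either set. GATA4 was at 31.0 to 70.6 (median 39.3) CPM in left ventricle and at 0 in every skeletal muscle sample but sample 31, which had 2.02 CPM. TBX20 was at 38.7 to 81.0 (median 64.9) CPM, against 3 counts in all skeletal muscle samples together (ratio 167, 95% counting interval 56.7 to 811). GATA6 was at 89.3 to 223 (median 109) CPM and TBX5 at 32.2 to 89.9 (median 48.9) CPM, and for each the highest skeletal muscle value, 11.6 CPM, came from sample 57. Sample 38 lay below that value for both, at 1.71 CPM of GATA6 and 1.14 CPM of TBX5. MEF2C, a factor of heart and of skeletal fibres, was called in skeletal muscle, at 409.6 to 696 (median 519) CPM against 96.5 to 166 (median 152) CPM (fold change -1.64 ± 0.31, edgeR adjusted p = 0.00390). In all, 4 of the 9 tested cardiac factors were called in left ventricle and 1 in skeletal muscle with 12 samples, and 6 and 2 with 10. The shares over all tested genes were 4.02% and 4.2% with 12 samples, and 10.1% and 8.13% with 10.

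The 5 myogenic factors that passed the filter on low counts were called in skeletal muscle, with 12 and with 10 samples, against 4.2% and 8.13% of all tested genes. MYF6, the myogenic factor of mature fibres, was at 113 to 221 (median 201) CPM in skeletal muscle and had 2 counts in all left ventricle samples together (ratio 988, 95% counting interval 273 to 8161). SIX4, which acts beside the myogenic factors, had a fold change of -6.48 ± 0.87, and BHLHE41 one of -2.73 ± 0.44. MSTN, the growth inhibitor myostatin, had 25.6 to 94.2 (median 58.2) CPM in skeletal muscle and at most 1.60 CPM in left ventricle. MYOD1, the factor that starts the muscle programme, was too low to be tested. It was at 1.37 to 50.0 (median 9.42) CPM in skeletal muscle and 11.6 CPM in sample 57, and at 0 counts in all 6 left ventricle samples, at least 70.9-fold lower. Sample 43 held 148 of its 196 counts, and without that sample the bound was 24.7-fold. Of 28 HOX genes with a row, which record position along the body axis, 3 passed the filter on low counts and were called in skeletal muscle. They passed it through their skeletal muscle level, which fixed the direction of the call, so nothing is read from that count. HOXC10, a gene of the hindlimb and lumbar region, was at 18.2 to 35.2 (median 24.0) CPM in skeletal muscle and had 1 count in left ventricle (ratio 270.4, 95% counting interval 48.1 to 10722). HOXA5 and HOXA7 had fold changes of -5.84 ± 0.87 and -4.17 ± 1.12.

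Genes of secreted factors were called in left ventricle, and genes of adrenergic signalling in both directions. NPPB, which encodes the natriuretic peptide released by strained ventricle, was at 5.86 to 123 (median 20.8) CPM in left ventricle and at 0 in all skeletal muscle samples, at least 139-fold lower. Sample 12 had the highest value. The gene passed the filter on low counts without samples 38 and 57 only (edgeR adjusted p = 5.32e-05). CORIN, the protease that activates natriuretic peptides, was at 111 to 201 (median 125) CPM against 0 to 6.73 (median 0) CPM and was called with 10 samples (6.57 ± 0.61) but not with 12 (edgeR adjusted p = 0.0540), and its level in sample 57 was 51.2 CPM. AGT, which encodes angiotensinogen, was the member of the natriuretic and secreted list called with 12 samples, at 1.57 ± 0.44 (edgeR adjusted p = 0.0405), and CORIN, NPPB and AGT were the 3 of 4 called with 10. ADCY6, a main cardiac adenylyl cyclase, was at 265 to 716 (median 331) CPM against 9.85 to 29.4 (median 16.8) CPM, with 191 CPM in sample 38 (fold change 4.48 ± 0.46, edgeR adjusted p = 3.66e-05). PDE3A, which breaks down the cyclic AMP that ADCY6 makes, was at 24.4 to 76.8 (median 57.8) CPM against 0.469 to 3.72 (median 1.83) CPM (4.82 ± 0.56, edgeR adjusted p = 7.90e-05). The glycogen-targeting phosphatase subunit PPP1R3A and the phosphatase inhibitor PPP1R1A were called in skeletal muscle, at -4.24 ± 0.91 and -5.72 ± 0.78. Of the 7 tested genes of the adrenergic list, 2 were called in each direction with 12 samples, and 3 in left ventricle and 2 in skeletal muscle with 10. Both lists are set against 4.02% and 4.2% of all tested genes with 12 samples, and 10.1% and 8.13% with 10.

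Genes of sugar breakdown were higher in skeletal muscle in most cases. Of 26 tested genes of glycolysis and glycogen breakdown, 19 were called higher in skeletal muscle and 3 higher in left ventricle with 12 samples, and 20 and 3 with 10. The shares over all tested genes were 4.2% and 4.02% with 12 samples, and 8.13% and 10.1% with 10. The list median was -2.63 with 12 samples, against 0.05 over all tested genes, and -2.21 against 0.36 when samples were scaled by library size alone. PYGM, the phosphorylase that frees glucose from muscle glycogen, was at 8099.7 to 10952 (median 9018) CPM in skeletal muscle and 189 to 359 (median 266) CPM in left ventricle (fold change -5.14 ± 0.87, edgeR adjusted p = 0.00200). LDHA, which turns pyruvate into lactate, was at 3897 to 6574 (median 5406) CPM against 30.3 to 64.1 (median 50.0) CPM. Sample 38 had 596 CPM of LDHA, above every other left ventricle sample, and the blood samples had a median of 122 CPM. The fold change of LDHA was -5.42 ± 0.75 with 12 samples (edgeR adjusted p = 0.000375) and -6.63 ± 0.27 with 10 (adjusted p = 1.79e-12). GAPDH, ENO3 and PKM, enzymes of the middle and end of glycolysis, had fold changes of -2.79 ± 0.59, -3.43 ± 0.85 and -2.60 ± 0.50. With 12 samples these 3 lost the call with the blood marker share as a covariate, with counts summed per pig and tissue and in each pig alone, and PYGM lost it with the blood covariate and in pig 4494 alone. FBP2, the muscle fructose bisphosphatase, had 0 counts in all left ventricle samples and a mean of 344 CPM in the 5 skeletal muscle samples. AMPD1, the AMP deaminase of muscle, was at 1401 to 1770.2 (median 1510.2) CPM in skeletal muscle and at most 4.81 CPM in left ventricle.

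The 3 glycolysis genes called in left ventricle were HK1, PGAM1 and PFKFB2. HK1, the hexokinase of heart, brain and blood cells, was at 328 to 443 (median 436) CPM in left ventricle and 18.4 to 38.5 (median 27.1) CPM in skeletal muscle (fold change 3.43 ± 0.37, edgeR adjusted p = 5.03e-05), with 249.7 CPM in sample 38 and a median of 87.4 CPM in blood. PGAM1, the broadly expressed phosphoglycerate mutase, was at 63.5 to 190.0 (median 119) CPM against 6.12 to 15.2 (median 8.74) CPM (3.53 ± 0.41, edgeR adjusted p = 7.90e-05). PGAM2, its muscle isoform, was called in skeletal muscle (-4.13 ± 0.78), while HK2, the insulin-regulated hexokinase of muscle, missed the threshold (-1.15 ± 0.50, edgeR adjusted p = 0.196). PFKFB2, a heart-type regulator of phosphofructokinase, had a fold change of 1.98 ± 0.54 (edgeR adjusted p = 0.0346). Sample 38 lay below the other left ventricle samples for HK1, within them for PGAM1 at 76.9 CPM and above them for PFKFB2 at 61.0 CPM. With 12 samples, all 3 lost the call when counts were summed per pig and tissue.

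Genes of fatty acid oxidation were called mainly without samples 38 and 57. With 12 samples, edgeR called 0 of 24 tested in left ventricle, against 4.02% of all tested genes, and 1, UCP3, in skeletal muscle, against 4.2%, with 3 and 2 at an unadjusted p under 0.05, and DESeq2 called HADHB in left ventricle as well (adjusted p = 0.0256). With 10 samples, 8 were called in left ventricle and 2 in skeletal muscle, against 10.1% and 8.13% of all tested genes, and the median of the list was 0.27. PDK4, which inhibits pyruvate dehydrogenase, was at 497 to 3271 (median 867) CPM in left ventricle and 208 to 378 (median 236) CPM in skeletal muscle, a fold change of 1.95 ± 0.32 without samples 38 and 57 (edgeR adjusted p = 0.000140). HADHB, a subunit of the trifunctional protein of beta-oxidation, and OXCT1, which lets muscle burn ketone bodies, had fold changes of 1.68 ± 0.21 and 1.52 ± 0.25 in the same fit, and ACADL one of 1.02 ± 0.23. With 12 samples these 4 genes had edgeR adjusted p-values of 0.194, 0.0870, 0.258 and 0.593. UCP3, the uncoupling protein of skeletal muscle mitochondria, was at 17.1 to 102 (median 37.9) CPM in skeletal muscle and 0 to 3.94 (median 1.09) CPM in left ventricle, with 6.84 CPM in sample 38, a fold change of -4.05 ± 0.76 (edgeR adjusted p = 0.00384). CPT2 was called in skeletal muscle with 10 samples and not with 12, and its groups overlapped.

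Of 34 tested enzymes of the citric acid cycle and the respiratory chain, 1 was called in left ventricle and 0 in skeletal muscle with 12 samples, against 4.02% and 4.2% of all tested genes. With 10 samples 1 was called in each tissue, against 10.1% and 8.13%. The median fold change was 0.19 with 12 samples and 0.27 with 10, against 0.05 and 0.04 over all tested genes. COX7A2, the broadly expressed form of a cytochrome oxidase subunit, was the gene called in left ventricle, at 45.2 to 96.6 (median 51.9) CPM against 5.16 to 28.7 (median 13.5) CPM (2.02 ± 0.43, edgeR adjusted p = 0.00962). SUCLA2 was called in skeletal muscle without samples 38 and 57, at -1.18 ± 0.24. In the list of energy buffering, AK1, the adenylate kinase of muscle, and GAMT, an enzyme of creatine synthesis, were called in skeletal muscle at -3.63 ± 0.71 and -3.06 ± 0.84. CKMT2, the mitochondrial creatine kinase of striated muscle, was at 347 to 920.4 (median 551) CPM in left ventricle and 737 to 1011 (median 932) CPM in skeletal muscle. The groups overlapped, and the fold change of -0.61 ± 0.24 without samples 38 and 57 missed the threshold (edgeR adjusted p = 0.0725).

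**Figure D4:**
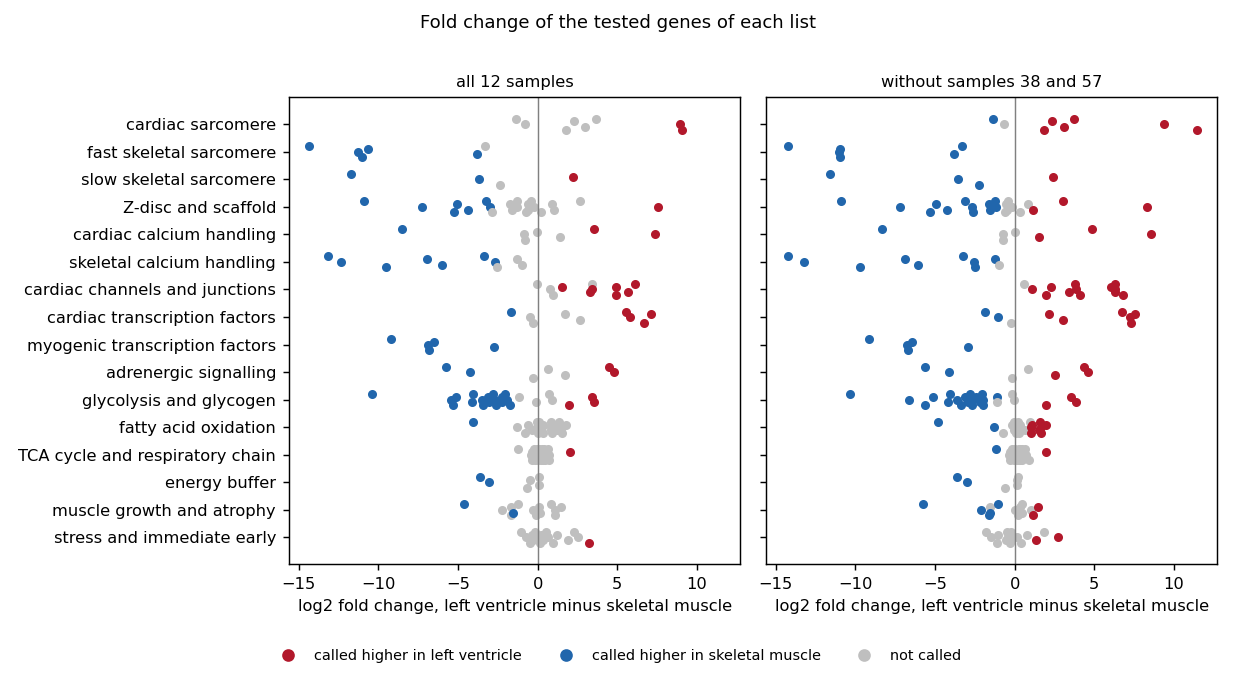
Fold change of the tested genes of 16 lists (log2 scale, left ventricle minus skeletal muscle), with all 12 samples on the left and without samples 38 and 57 on the right, and 1 point per gene coloured by its call. Genes with 0 counts in a whole tissue are left out. Most glycolysis genes lie on the skeletal muscle side, and the citric acid cycle and respiratory chain lie close to 0.

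Ratios of paired genes within a sample do not depend on the scaling between samples. They were computed as the log2 ratio of counts with 0.5 added to each, and only the same pair is compared between samples, since gene lengths differ. In the 5 left ventricle samples the ratio of TNNT2 to TNNT1 was 4.45 to 5.56, and in the 5 skeletal muscle samples -8.08 to -5.93. Sample 38 had 6.89 and sample 57 -3.38, each on the side of its label. The ratio of ACTC1 to ACTA1 was -1.64 to 0.28 in left ventricle and -8.90 to -6.18 in skeletal muscle. Among metabolic pairs, HK1 to HK2 was 2.56 to 6.51 in left ventricle and -1.70 to -0.12 in skeletal muscle, and PGAM1 to PGAM2 was 0.84 to 2.52 and -6.86 to -5.33. The ratio of ENO1 to ENO3 differed in degree, at -4.59 to -3.15 against -7.03 to -6.54, with sample 38 at 6.11, above both tissues. Samples 38 and 57 aside, the tissues overlapped in none of the plotted pairs.

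**Figure D5:**
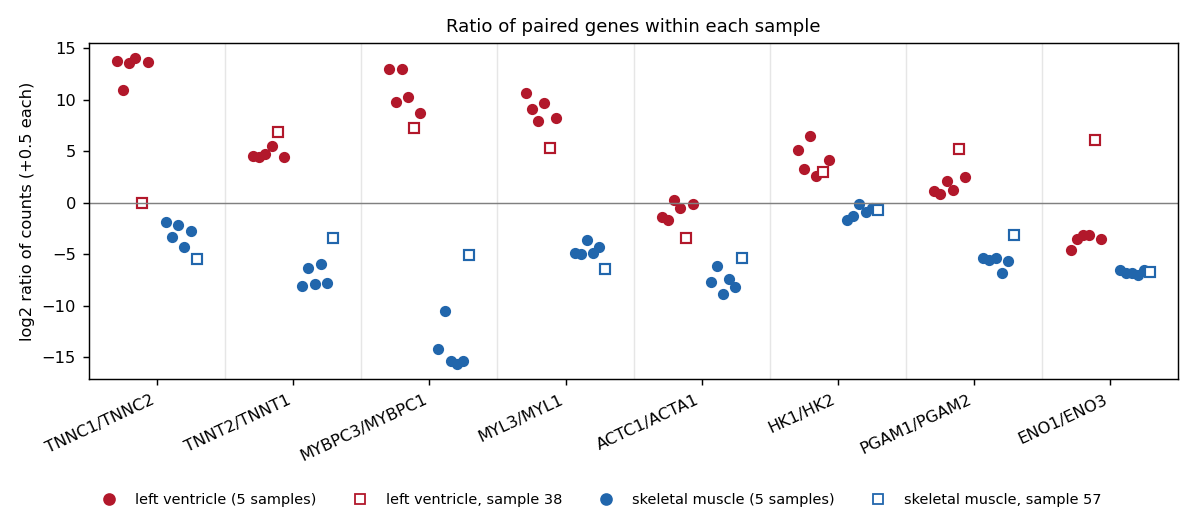
Log2 ratio of the counts of gene pairs in each of the 12 samples, with left ventricle and skeletal muscle side by side. The first gene of each pair is the cardiac or broadly expressed form. Left ventricle samples other than 38 are above skeletal muscle for every pair shown.

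The calls outside the lists were of several kinds. Among the genes with the smallest p-values in left ventricle with 12 samples, EHD4, an endosomal ATPase, was at 324 to 375 (median 343) CPM against 19.2 to 41.0 (median 26.4) CPM (3.87 ± 0.35, edgeR adjusted p = 1.28e-05), and sample 38 had the highest value of all, 731 CPM. SLC16A7, a carrier of lactate and pyruvate, was at 341 to 524 (median 383) CPM against 2.45 to 14.5 (median 10.1) CPM (4.96 ± 0.56). TGM2, a transglutaminase, MRM1, a mitochondrial ribosomal RNA methyltransferase, and DNMT1, the maintenance DNA methyltransferase, had fold changes of 2.74 ± 0.31, 4.15 ± 0.45 and 2.83 ± 0.31. The blood samples had a median of 313 CPM of DNMT1, between the levels of the tissues, and 36.1 CPM of EHD4. SERPINB2, an inhibitor of plasminogen activators, was at 160.1 to 809.9 (median 383) CPM in left ventricle, at 10.8 CPM in sample 38 and at 0 counts in skeletal muscle and blood, at least 1352-fold higher in left ventricle. PTGER3, a prostaglandin receptor, was likewise at 28.9 to 51.2 (median 43.0) CPM in left ventricle and 0 in skeletal muscle, at least 126-fold higher without samples 38 and 57. MYZAP, a protein of the intercalated disc, and ABLIM1, an actin-binding protein, had fold changes of 5.41 ± 0.25 and 4.48 ± 0.24 in that fit.

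On the skeletal muscle side, CA3, the carbonic anhydrase of slow fibres, was at 489 to 883 (median 568) CPM and had 4 counts in all left ventricle samples (-10.36 ± 0.71, edgeR adjusted p = 1.41e-06). NEURL1, a ubiquitin ligase, had 1 count in left ventricle and 111 to 253 (median 131) CPM in skeletal muscle (ratio 1779.8, 95% counting interval 319 to 70341). EGF, the epidermal growth factor precursor, was at 173 to 595 (median 379.6) CPM in skeletal muscle and at most 1.60 CPM in left ventricle (-9.32 ± 0.74, edgeR adjusted p = 4.12e-06). CAPN3, the muscle calpain, was at 1327 to 1632 (median 1408) CPM against 3.28 to 16.0 (median 7.81) CPM, with 117 CPM in sample 38. MYH8, the perinatal myosin heavy chain, was at 97634 to 160682 (median 104219) CPM in skeletal muscle and 0 to 16.8 (median 5.25) CPM in left ventricle (-14.37 ± 1.72, edgeR adjusted p = 0.000109). MYH1, MYH2 and MYH4, the adult fast chains of the same gene cluster, have no named row, and reads of these near-identical genes may be counted on MYH8. Of the genes without a symbol, ENSSSCG00000029199 and ENSSSCG00000024342 had 1 count each in left ventricle and 276 to 464 (median 338) CPM and 116 to 192 (median 123) CPM in skeletal muscle. Their ratios were 3720.3 (95% counting interval 667 to 146987) and 1379 (247 to 54514). ENSSSCG00000008409 and ENSSSCG00000001039 were called in left ventricle, at 2.60 ± 0.26 and 3.72 ± 0.49.

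Lists of stress, clock and growth genes are read against 8.23% of all tested genes called in either direction with 12 samples and 18.2% with 10. Of 18 tested stress and immediate early genes, 1 was called with 12 samples, IER3, in left ventricle (3.22 ± 0.66, edgeR adjusted p = 0.00683), and sample 38 had its highest value, 142 CPM. MYC was called in left ventricle without samples 38 and 57, and its groups overlapped. Of 9 tested clock genes, 0 were called with 12 samples by edgeR, with 4 at an unadjusted p under 0.05, 3 of them higher in skeletal muscle. DESeq2 called NR1D2 and PER2 in skeletal muscle (adjusted p = 0.0148 and 0.0395), and in edgeR NR1D2, PER2 and CRY1 were called in skeletal muscle with 10. NR1D2, a repressor of the clock, was at 249.9 to 543 (median 462) CPM against 101 to 199.6 (median 155) CPM in that fit (-1.31 ± 0.19, edgeR adjusted p = 3.69e-05). Of 14 tested genes of muscle growth, atrophy and membrane repair, 0 were called in left ventricle and 2 in skeletal muscle with 12 samples, and 2 and 5 with 10. The 2 were BIN1, which shapes the transverse tubules (-4.59 ± 0.75, edgeR adjusted p = 0.00147), and DYSF, the membrane repair protein dysferlin (-1.55 ± 0.45, edgeR adjusted p = 0.0484). BIN1 was at 663 to 1308 (median 974) CPM in skeletal muscle and 11.7 to 22.1 (median 17.5) CPM in left ventricle, but at 154 CPM in sample 38 and 119 CPM in sample 57. DMD, dystrophin, and UTRN, its relative utrophin, were called in opposite directions without samples 38 and 57, at -1.04 ± 0.22 and 1.17 ± 0.23.

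Markers of the cells between the muscle cells were read with the same test. The shares of all tested genes called in left ventricle and skeletal muscle were 4.02% and 4.2% with 12 samples. With 10 they were 10.1% and 8.13%. These lists held few tested genes, so single calls are not read as a difference in a cell type. Of 8 tested endothelial markers, KDR was called in left ventricle with either set, and the summed level of the list was 1015 to 1389.9 CPM in the 5 left ventricle samples and 644 to 1113 CPM in the 5 skeletal muscle samples. Of 7 tested fibroblast markers, FBLN1 was called with 12 samples, and FBLN1 and PDGFRA with 10, and the summed levels of 4122 to 9083 and 3915 to 8940.3 CPM overlapped. The 4 tested macrophage markers gave 0 calls with 12 samples in edgeR, with 0 at an unadjusted p under 0.05, and MRC1 was called in left ventricle with 10. HBB, the erythroid marker that could be tested, and the leukocyte markers PTPRC and LCP1 were called in left ventricle with either set. Their fold changes were 3.96 ± 0.94, 3.13 ± 0.76 and 3.23 ± 0.92 with 12 samples and 3.44 ± 0.75, 2.14 ± 0.36 and 1.99 ± 0.29 with 10. With 10 samples the endocardial markers CDH11 and POSTN and the pericyte marker KCNJ8 were also called in left ventricle, of 3 and 7 tested in their lists. In the atrial and conduction list, PAM was called in left ventricle and SLN in skeletal muscle, of 4 tested. The satellite cell, platelet, nerve and mesothelial markers were too low to be tested. The adipocyte gene PLIN4 was called in skeletal muscle with 10 samples, at -1.21 ± 0.35. Genes with a higher mean in blood than in the 5 left ventricle samples made up 82 of the 375 left ventricle calls (21.9%) with 12 samples and 221 of 939 (23.5%) with 10, against 45.7% and 45.2% of all tested genes. For the calls in skeletal muscle the counts were 7 of 392 (1.79%) and 40 of 755 (5.30%) with a higher mean in blood than in the 5 skeletal muscle samples, against 44.8% and 44.2% of all tested genes. Genes called in a tissue were selected for a high level there. Shares below those over all tested genes follow from that selection, so nothing is read from the comparison. The part of blood in these calls was not tested.

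Whether the tissue difference was the same in the 2 pigs was tested by an interaction term. With 12 samples, 0 of 9325 genes passed an adjusted p of 0.05 in edgeR, with 909 at an unadjusted p under 0.05, and DESeq2 gave 413. Without samples 38 and 57, 21 of 9284 genes (0.226%) passed. ACTC1 was among them. Its mean in left ventricle was 3311 CPM in pig 4491 and 5623 CPM in pig 4494, and in skeletal muscle 733 and 143 CPM, so the tissue difference was larger by 3.14 ± 0.40 on the log2 scale in pig 4494 (edgeR adjusted p = 0.000460). CSRP3, a mechanical sensor of the Z-disc, was in skeletal muscle at 649.5 CPM in pig 4491 and 161 CPM in pig 4494, with left ventricle at 766 and 692 CPM (difference 1.88 ± 0.37, edgeR adjusted p = 0.0354). CDH2 had 4.22 CPM in the skeletal muscle of pig 4491, from 20 counts, and 0 counts in that of pig 4494, with left ventricle at 716 and 777 CPM (edgeR adjusted p = 0.00928). With 3 counts over the group as the floor, the log2 difference was larger in pig 4494 by at least 3.13. MYBPH, a myosin-binding protein of skeletal fibres that was chosen after its values were seen, was at 1290 and 55.6 CPM in the skeletal muscle of pigs 4491 and 4494. With 2 pigs and 2 or 3 samples per pig and tissue, a difference between animals and a difference between places of biopsy cannot be told apart.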

How the data were processed

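Total RNA of single biopsies was sequenced as pairs of short reads after a stranded library kit. Per the labels and the study's methods, the authors trimmed reads with Trim Galore, mapped them to Sscrofa10.2 with STAR and assigned them to genes with featureCounts. Tool versions and the strand setting are not given in the sources used here. The deposited values are raw read counts for 25114 Ensembl genes, without normalisation. A symbol from a gene table was found for 11791 of these identifiers. Genes without a named row, MYH7, TNNI3 and ATP2A2 among them, were not analysed here.

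Groups and pigs came from the labels, which also give the pairing, since both tissues were taken from each pig. The isolation batches are not in the labels and were not used. Counts were fitted with edgeR 4.0.16 in R 4.3.3, with TMM normalisation, filterByExpr and the pig as covariate, and p-values were adjusted by the Benjamini-Hochberg method. A gene was called at a log2 fold change beyond 1 and an adjusted p under 0.05. The fit was tested on simulated counts. Levels are TMM-normalised CPM, on 1 scale for all samples. Where a tissue had 0 counts, a floor of 3 counts over the group gave the lower bound of a fold, and with 1 to 3 counts a ratio is given with its 95% counting interval. Intervals cover counting error only.

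The genes named were a fixed set, up to 4 called members of each list in each direction with the highest level, the 10 named genes with the smallest p in each direction and the 5 with the largest change among those over 10 CPM. This was done with 12 samples and without samples 38 and 57. Genes given only by their call in a list were taken from the list tables. A few genes that this rule names are not reported here. The members, lists and alternatives were chosen with earlier results of these data known. Alternatives were DESeq2 1.42.0, other scalings and filters, each pig alone, sums per pig, fits with a blood covariate or without the pig, thinning to 325907 counts and leaving out each sample. Those that leave out samples 38 and 57 and change a further choice were added after the data were seen. No sequences are shown, since no sequence was given for these genes.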

Additional observations from a re-analysis of the deposited data

Results flagged for a closer look

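Of 54 groups of sample values tested for a sample far from the others with Dixon's 95% critical value, 15 had such a sample. That value flags about 1 in 20 groups of normally distributed values. In some groups here all samples but 1 were at 0, so any count in that sample was flagged. The 15 are therefore not read against that rate. Sample 38 lay apart in left ventricle for its share of erythroid and leukocyte markers (0.422%) and of cardiomyocyte markers (0.00946%). Sample 57 lay apart in skeletal muscle for its share of erythroid and leukocyte markers (0.0353%). It was also the highest skeletal muscle sample for RYR2 at 165 CPM, GJA1 at 165 CPM and TBX5 at 11.6 CPM, and the lowest for CASQ1 at 2043 CPM and CKMT2 at 95.5 CPM. Sample 31 was the highest skeletal muscle sample for GATA4 at 2.02 CPM and TBX20 at 1.35 CPM, and sample 43 was the highest for MYOD1 at 50.0 CPM. In left ventricle, sample 12 was the highest for NPPB at 123 CPM and for TNNC2 at 1.94 CPM, and sample 40 was the highest for MYF6 at 1.60 CPM and SCN4A at 4.01 CPM. The values of MYF6, GATA4 and TBX20 rest on 3 counts or fewer, and that of TNNC2 on 5.

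The tissue difference of 3 named genes differed between the pigs in the interaction test without samples 38 and 57. On the log2 scale it was larger in pig 4494 by 3.14 for ACTC1, by a fitted 6.19 for CDH2 and by 1.88 for CSRP3. The value of CDH2 was fitted against a group at 0 counts and is no bound, and with 3 counts as the floor it was at least 3.13. With all 12 samples no gene passed this test in edgeR, with 909 of 9325 at an unadjusted p under 0.05.

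Outside the comparison, 1 micro-biopsy of the heart taken at baseline, sample 10 of pig 4491, had 5.39% of its 73988 counts on skeletal myofibre markers (exact 95% interval 5.22 to 5.55%, counting error only). The other 19 micro-biopsies at baseline had 0.00496 to 0.895%, the 12 at follow-up 0.00272 to 0.767% and the 4 conventional biopsies at follow-up 0.0430 to 1.18%. Sample 10 had 4304.5 CPM of TNNC2 and 11004 CPM of ATP2A1, against at most 13.0 and 33.9 CPM in the other 19. It also had 4.84% of its counts on cardiomyocyte markers, with TNNT2 at 3600.5 CPM.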

How the results depend on the processing

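The counts of called genes depended on the processing, and are given here as higher in left ventricle and higher in skeletal muscle. With 12 samples they were 375 and 392. They were 939 and 755 without samples 38 and 57, 163 and 159 with the blood marker share as a covariate, 618 and 660 by DESeq2, 565 and 260 with scaling by library size alone, 45 and 92 with counts summed per pig and tissue, 226 and 249 in pig 4491 alone, 36 and 90 in pig 4494 alone, and 130 and 193 when tested against a log2 fold change of 1. Without samples under 1000000 counts, 233 were higher in left ventricle. Without the replicate block, that is without the pig in the fit, they were 496 and 410. Leaving out each sample gave 238 to 647 and 272 to 596. Both counts rose without sample 38 (647 and 596) and without sample 57 (570 and 504). Leaving out any other single sample lowered both counts, the most for sample 41 (238 and 272). The causes were not tested. Alternatives added after the data were seen, all without samples 38 and 57, gave 1091 and 891 by DESeq2, 1114 and 874 without a filter on low counts, 564 and 613 summed per pig, 485 and 482 in pig 4491 alone, 933 and 803 in pig 4494 alone, 442 and 372 when tested against a log2 fold change of 1, and 808 to 979 and 713 to 827 when each further sample was left out. Genes whose tissue difference differed between pigs numbered 0 with 12 samples in edgeR (909 at an unadjusted p under 0.05), 21 without samples 38 and 57, 413 by DESeq2, and 0 to 11 when each sample was left out, with 11 without sample 38, 2 without sample 18 and 1 without sample 43. The difference in blood marker share was 0.0416 to 0.122 percentage points when each sample was left out, with exact p of 0.08 to 0.12 when any skeletal muscle sample was.

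Of the named genes, 7 changed direction with the blood covariate, to 1.98 for CKMT2, 1.11 for DES, 0.33 for DMD, 0.30 for CMYA5, 0.0754 for SGCA, 0.0331 for SUCLA2 and 0.0122 for TPM1, and MEF2D did in pig 4494 alone, to 0.21. None of the 8 passed the test there (edgeR adjusted p of 0.477 to 0.996). Over the settings that keep at least 1 of samples 38 and 57, 2559 values of named genes kept direction and call, 71 gained the call and 229 lost it. Over those without both, 1493 kept them, 472 gained the call and 7 lost it. Samples held 325907 to 4175898 counts, so changes in genes at a few CPM were not detectable in the shallowest sample.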
